A study of Mus musculus with 8 samples.

Results

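Conventional dendritic cells type 2 (cDC2) were examined at the cortical injury site of mice 6 days after photothrombotic stroke (PT), and 263 of 46216 cells were cDC2. Single cells of the right sensorimotor cortex had been sequenced from 4 control mice given saline and 4 fibrinogen-depleted mice given ancrod, with 1 library per mouse, to ask how the loss of fibrinogen alters the cells around the lesion. Both groups had a 4 mm cortical area illuminated after injection of Rose Bengal, a dye that closes vessels when lit. Osmotic minipumps were placed under the skin 2 days before PT and released saline or ancrod, a snake venom enzyme that removes fibrinogen from the blood, at 2.4 U (2.0 mg per kg) per day until the end. The sample labels give every mouse as female and Bl/J6, whereas the methods of the study name C57BL/6N mice of both sexes, a difference that could not be resolved here. The labels describe the mice as adult. Replicates 1 to 3 of each group formed batch 1 and replicate 4 of each group batch 2, for both injury and sequencing. The meninges had been removed and no cell type was enriched.

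Members were selected on their own transcripts. A droplet counted as a cell when it held at least 2000 UMIs (unique molecular identifiers, each standing for 1 captured transcript), with under 20% of them mitochondrial. It counted as cDC2 with at least 1.5 UMIs per 10000 (cp10k) of Cd209a, Flt3 and Clec10a together, with Cd209a or Flt3 detected, and at least 20 cp10k of the MHC class II genes H2-Aa, H2-Ab1 and Cd74. Droplets with Xcr1, Clec9a or Ccr9 were left out, as were those with marker genes of microglia (P2ry12, Tmem119 and Sall1, 1 cp10k or more), border-associated macrophages (Mrc1, Pf4 and F13a1, 5 or more) or mature dendritic cells (Ccr7, Fscn1 and Ccl22, 3 or more). The levels of these genes are therefore a description of the selection and not a result. For comparison, gates of the same kind gave 62 cDC1, 111 mature dendritic cells (mature DC) and 2090 monocytes and macrophages. Of the mature DC, 20 of 36 in controls and 23 of 75 in ancrod mice held at least 1 cp10k of B cell markers, among them Cd79a, Cd79b and Ms4a1.

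Conventional dendritic cells take up antigen, load it on MHC molecules and show it to T cells. Flt3 is the receptor for the growth factor on which they depend. The cDC2 lineage is known for presenting antigen on MHC class II to CD4+ T cells and for the C-type lectins Cd209a and Clec10a, while cDC1, marked by Xcr1 and Clec9a, are known for presenting to CD8+ T cells. Dendritic cells that have met a stimulus acquire Ccr7, which guides them to lymph nodes. In the healthy brain such cells are rare and sit mostly at the borders.

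MHC class II genes share a module of promoter elements, of which the Y box holds the letters GATTGG, an inverted CCAAT box bound by NF-Y. Together with its neighbours it recruits the coactivator Ciita. MHC class II genes were used to select cDC2 and not monocytes and macrophages, so their higher level in cDC2 is not independent of the selection. The stretch around GATTGG on the gene's own strand is printed for H2-Aa of the gate and 5 genes outside it. It comes from RefSeq promoters on GRCm38.p6. The capitals mark the motif, and each stretch lies within the 250 bases before the start of the gene, 5′ to 3′.
H2-Aa, chr17:34287824-34287922, minus strand: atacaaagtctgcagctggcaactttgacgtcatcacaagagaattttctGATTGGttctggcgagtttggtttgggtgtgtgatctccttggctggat
H2-Eb1, chr17:34305757-34305856, plus strand: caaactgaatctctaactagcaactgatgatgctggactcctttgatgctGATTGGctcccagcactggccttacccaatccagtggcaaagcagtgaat
H2-DMb1, chr17:34153079-34153178, plus strand: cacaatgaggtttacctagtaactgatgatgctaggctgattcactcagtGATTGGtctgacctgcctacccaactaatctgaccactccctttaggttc
H2-DMb2, chr17:34145108-34145207, plus strand: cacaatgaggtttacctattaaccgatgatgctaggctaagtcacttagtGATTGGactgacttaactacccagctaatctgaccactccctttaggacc
H2-Oa, chr17:34092285-34092378, plus strand: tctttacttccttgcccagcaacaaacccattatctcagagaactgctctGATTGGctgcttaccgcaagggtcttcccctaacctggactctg
H2-Ob, chr17:34238797-34238896, plus strand: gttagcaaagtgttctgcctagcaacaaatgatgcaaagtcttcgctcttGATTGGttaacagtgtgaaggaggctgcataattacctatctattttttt

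In these 6 promoters the motif began 44 to 91 bases before the start. H2-DMa has 2 promoters in the table, 1 without the motif and 1 with it 199 bases before the start. The table held 7 of the 9 genes looked up, and H2-Ab1 and Ciita were the others. Over all 32851 promoters of 300 bases, 8.71% held GATTGG on the gene's own strand, as searched here, and 16.1% on either strand. A match describes the letters only. H2-DMb1 and H2-DMb2 are close copies, so how reads were divided between them is uncertain.

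The number of cDC2 ranged from 13 to 61 per mouse. Controls 1 to 4 gave 32, 23, 38 and 13 cDC2, and ancrod mice 1 to 4 gave 41, 61, 35 and 20. Of the 263 cells, 120 held UMIs of both Cd209a and Flt3, 37 of Cd209a alone and 106 of Flt3 alone, and Clec10a was found in 171. The cells held a median of 17906 UMIs, from 2185 to 44229. No cDC2 barcode occurred as cDC2 in a second library, although the 28 pairs of libraries shared 278 cell barcodes in all, and 4 cDC2 carried a barcode that another library also had as a cell. Near the threshold of 1.5 cp10k, 25 members lay within 20% above it and 21 otherwise eligible droplets within 20% below it. The 3 lowest members held 1.52, 1.53 and 1.53 cp10k, and the next droplets outside held 1.46 and 1.43 after 1 just under the threshold. The MHC class II step separated the cells more widely, with 21.5 cp10k in the lowest member and 14.3 in the highest droplet outside.

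Control libraries held 97861434 to 122758649 UMIs and ancrod libraries 126682918 to 142139441, so depth did not overlap between the groups, and its part in the results was not tested. Each library gave 5080 to 6277 cells of 1679436 to 2216653 barcodes, where the labels speak of about 6000 cells per sample. Over the cDC2 themselves, median UMIs per mouse ranged from 15999 to 19570. Among the 263 cells, 8 were scored as doublets and 12 held at least 5 cp10k of the markers of another lineage (6 endothelial, 4 astrocyte, 1 T cell and 1 NK cell). These were 14 different droplets, 10 in controls and 4 in ancrod mice. Values without them are given beside many of the results.

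Against cDC1 and against monocytes and macrophages, the cells matched the label by genes that the selection did not use. Irf4, a transcription factor of cDC2, ranged from 41.6 to 163 CPM (UMIs of a gene per 1000000 UMIs summed over the cDC2 of a mouse) over the 8 mice. Its range was 0 to 38.4 in cDC1 and 1.69 to 7.06 in monocytes and macrophages. Zbtb46, a transcription factor of conventional dendritic cells, ranged from 86.9 to 120 CPM in cDC2 and overlapped with cDC1, but it stayed at 2.20 to 4.59 in monocytes and macrophages. In mature DC, Irf4 overlapped with cDC2 at 41.5 to 154 CPM, and Zbtb46 was higher than in cDC2, at 194 to 363 CPM. Irf8, which cDC1 depend on, reached 14.5 to 72.0 CPM in cDC2 and 438 to 1164 in cDC1.

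The 4 gates come from the same cells, so levels between them are described without a test. Of the 12 cDC2 identity genes outside the gate, 8 were higher in cDC2 than in monocytes and macrophages in all 8 mice and 1, Sirpa, was lower in all 8. Over all 16880 genes with a UMI in either class, 9.19% were higher in all 8 mice and 12.7% lower. Against cDC1, 6 of the 12 were higher in all 8 mice, among them Sirpa, Irf4, Kmo and Mgl2, beside 4.14% of 14366 genes. Plbd1 alone of the list was lower than in cDC1 in all 8 mice, beside 2.07%. Against mature DC, 3 of the 12 (Itgax, Notch2 and Kmo) were higher in every mouse, beside 4.59% of 14478 genes, and Zbtb46 was lower in every mouse, beside 3.24%. Against the 68 mature DC without B cell markers, 2 to 19 per mouse, these held in every mouse except for Kmo, which was higher in 7.

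MHC class II machinery was higher in cDC2 than in monocytes and macrophages for most of its genes. Outside the gate, 8 of its 9 genes were higher in cDC2 than in monocytes and macrophages in all 8 mice, beside 9.19% of all genes, and 1 was lower, beside 12.7%. Since cDC2 were selected on MHC class II genes and monocytes and macrophages were not, these counts are not independent of the selection. H2-Eb1, a beta chain of MHC class II, ranged from 8958 to 11958 CPM against 467 to 1270. H2-Oa and H2-Ob encode the 2 chains of H2-O, which restrains peptide loading in B cells and dendritic cells. H2-Oa ranged from 178 to 417 CPM in cDC2 and from 0.830 to 3.48 in monocytes and macrophages. Only Ctss, the lysosomal protease that trims the invariant chain, went the other way, at 1126 to 1872 CPM against 2908 to 3646. Against cDC1, H2-DMb2 alone was higher in all 8 mice, at 130 to 243 CPM against at most 115, and 1 of 9 genes stands beside 4.14% of all genes. In the class I list of 10 genes, the transporter and proteasome genes Tap1, Tap2, Psmb8 and Psmb9 and the regulator Nlrc5 were higher than in monocytes and macrophages in all 8 mice, and H2-D1 and B2m were lower. These were 5 and 2 genes, beside 9.19% and 12.7% of all genes.

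**Figure D1:**
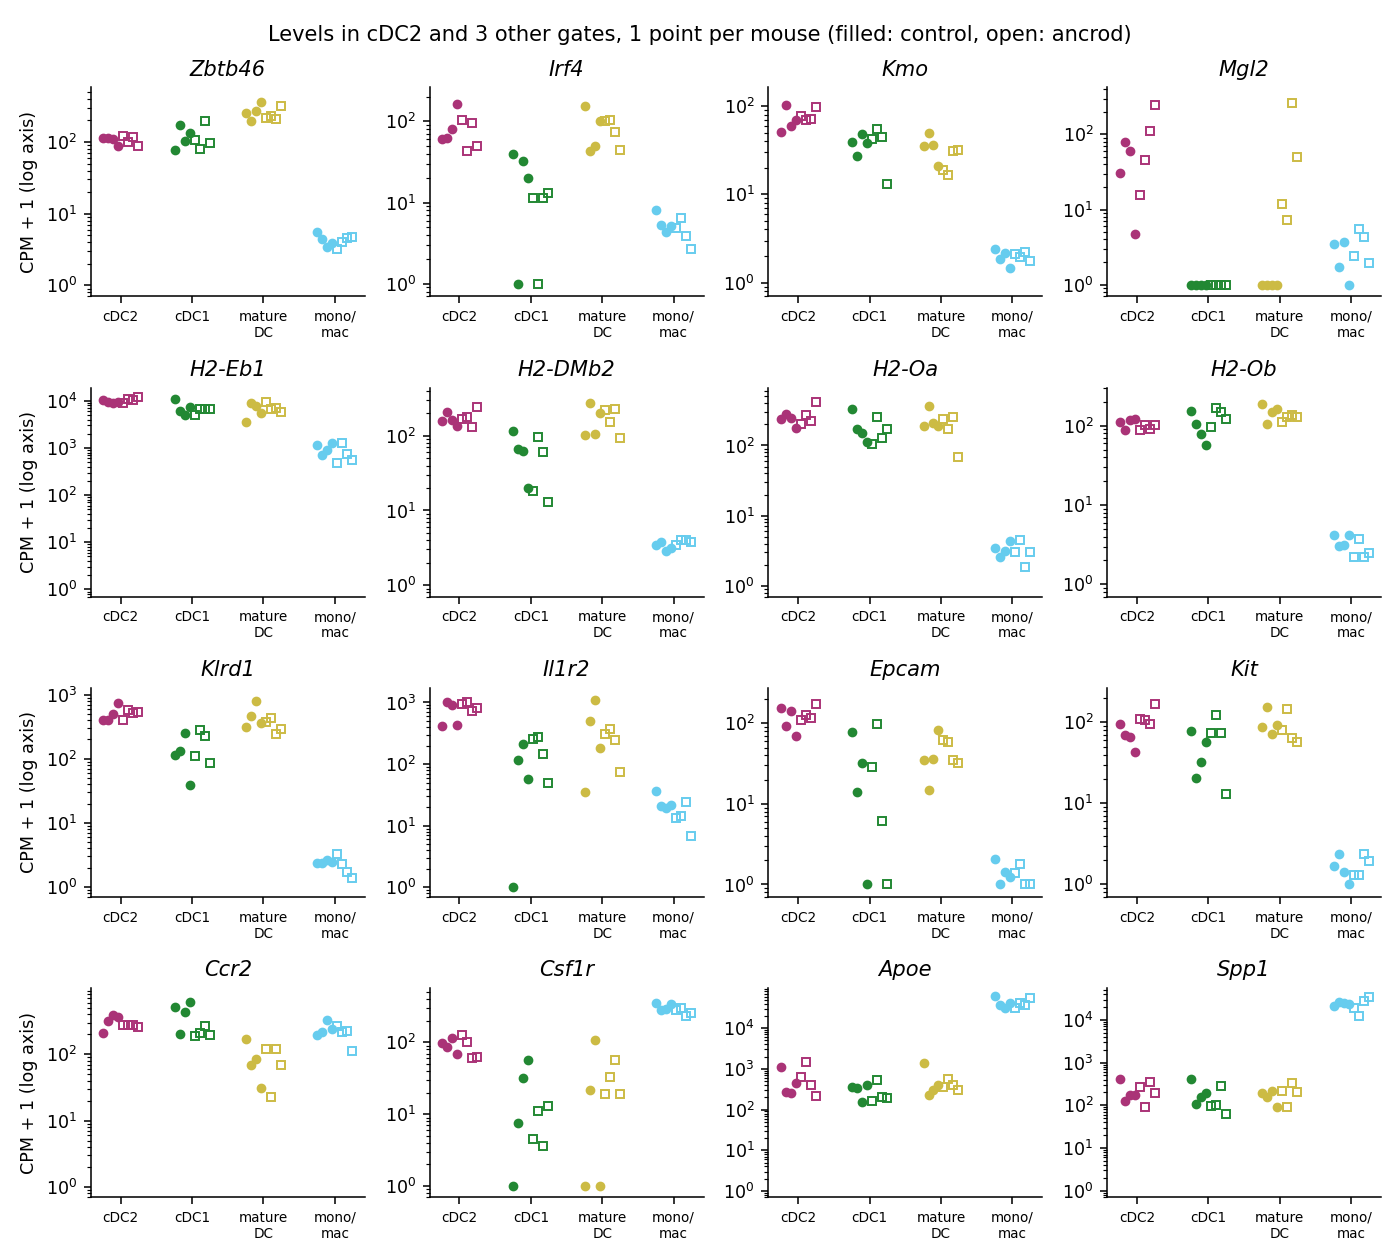
CPM + 1 on a log axis for 16 genes in cDC2, cDC1, mature DC and monocytes and macrophages, with 1 point per mouse (filled circles control, open squares ancrod). Klrd1, H2-Oa and Kit separate the dendritic cell gates from monocytes and macrophages, where Klrd1 stays between 0.375 and 2.30 CPM, while Apoe and Spp1 lie far higher in the latter.

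Ranked by the ratio of mean CPM to monocytes and macrophages, among 3168 genes with at least 50 CPM in cDC2 and outside the gates, the leading 20 included Klri1, Klrd1, Klrk1 and Klrb1b. Klrd1 (CD94), a lectin-like receptor known from NK cells, had 396 to 739 CPM (median 507) in cDC2, a 387-fold higher mean. Klri1 was 911-fold and Klrk1 61.5-fold higher, and since these genes form a family of related copies, how reads were divided among them is uncertain. The adhesion molecules Epcam, Itgae and Cdh1 were 332-fold, 237-fold and 35.0-fold higher. Il1r2, the decoy receptor that binds interleukin-1 without signalling, ranged from 414 to 1018 CPM against 5.81 to 36.0. Kit, the receptor of stem cell factor, ranged from 41.7 to 165 CPM against 0 to 1.39. In mature DC, Klrd1 ranged from 243 to 796 CPM, Il1r2 from 34.3 to 1078 and Kit from 55.3 to 152, which overlapped with cDC2. Against mature DC, none of Klrd1, Il1r2 and Kit was higher or lower in cDC2 in all 8 mice. The inhibitory receptor Btla and the lectin Siglecg were among the 20 as well. Itgae, which was also listed as a cDC1 gene, and Btla were lower in cDC2 than in cDC1 in all 8 mice. Kit overlapped with cDC1, while Klrd1, Il1r2, Epcam and Cdh1 were higher in cDC2 than in cDC1 in all 8. Of the 20 genes, 19 were higher in cDC2 than in monocytes and macrophages in all 8 mice. The exception was Xcl1, a chemokine of NK and T cells, whose UMIs came from 4 cells of 3 controls, 99 of them from 1 cell of control 4.

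Klrd1 and Il1r2 transcripts were spread over many cDC2. After thinning every cell to 2000 UMIs, Klrd1 was found in 40.0% to 76.9% of cDC2 per mouse (78.0% or more unthinned), against at most 0.266% of endothelial cells, which should lack it. Il1r2 was found in 38.5% to 71.4% of thinned cDC2 and in 0.145% to 0.855% of endothelial cells. Median UMIs per cell were 15999 to 19570 in cDC2 and 7614 to 17857 in endothelial cells. Kit was found in at most 30% of thinned cDC2 in a mouse (median 16.4%) and in 1.01% to 5.13% of endothelial cells, and Mgl2 in at most 17.4% of cDC2.

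Against cDC1, the leading 20 genes included receptors, lectins and chemokines. S100a4, a calcium-binding protein, ranged from 951 to 1554 CPM in cDC2 and from 0 to 196 in cDC1, an 18.0-fold higher mean. Ccr1, a receptor for inflammatory CC chemokines, ranged from 181 to 305 CPM, with 2 UMIs in all cDC1 together. Tlr2, a receptor for bacterial lipoproteins, was 39.2-fold higher and the lectin Cd33 16.5-fold higher, on 8 and 6 UMIs in cDC1. Mgl2, Mmp12 and Cdh1 had no UMI in cDC1, and their means were at least 37.6-fold, 32.8-fold and 30.4-fold higher than 3 UMIs over all cDC1 would give. Of the 20 genes, 17 were higher in cDC2 in all 8 mice. The exceptions were Myo1e, higher in 7, Cxcl10, higher in 5, and Xcl1, higher in 3.

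Several macrophage genes were low in cDC2. Apoe, a lipid carrier, ranged from 211 to 1435 CPM (median 421) in cDC2 and from 30692 to 60201 in monocytes and macrophages, and the complement gene C1qa from 19.0 to 159 against 2196 to 3497. Spp1 (osteopontin) ranged from 88.4 to 401 CPM against 12230 to 34589. Csf1r, the receptor that macrophages depend on, ranged from 60.4 to 125 against 235 to 354. Ccr2, which brings monocytes from the blood and is also carried by cDC2, was higher in cDC2 in all 8 mice, at 212 to 394 CPM against 113 to 330, and it belonged to the gate of the monocytes and macrophages.

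Among signalling molecules, Il1b, the inflammatory cytokine, had 1568 to 3318 CPM in cDC2, 230 to 449 in monocytes and macrophages and 57.6 to 956 in cDC1, and it was higher in cDC2 than in both in all 8 mice. Against mature DC, Il1b was neither higher nor lower in all 8 mice. Of the 12 costimulation and checkpoint genes, 8 were higher than in monocytes and macrophages in all 8 mice, and Lgals9 and Vsir were lower in all 8, beside 9.19% and 12.7% of all genes. Cd86 ranged from 867 to 1573 CPM in cDC2 and from 428 to 669 in monocytes and macrophages, and Cd80 from 171 to 431 against 54.0 to 83.1. Mature DC had more Cd80, at 326 to 546 CPM, and more Cd274 (PD-L1), at 318 to 547 against 56.9 to 196 in cDC2. Both were also higher in all 8 mice in the mature DC without B cell markers. Of the 12 pattern recognition genes, 7 were lower in cDC2 than in monocytes and macrophages in all 8 mice, among them Tlr2, Tlr4 and Cd14, beside 12.7% of all genes, and 1 (Nlrp3) was higher, a share near the 9.19% of all genes.

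Receptors for fibrinogen and matrix were carried by cDC2 at moderate levels. Itgam, the alpha chain of the fibrinogen receptor Mac-1, ranged from 86.9 to 180 CPM (median 127), against 124 to 202 in monocytes and macrophages and 0 to 39.2 in cDC1. Itgb2, its beta chain, ranged from 188 to 270 CPM and overlapped with monocytes and macrophages at 210 to 265. Itgb7, a beta chain that pairs with Itga4 or Itgae, was higher in cDC2 than in each of the other gates in all 8 mice (in 7 against mature DC without B cell markers), at 162 to 267 CPM against 19.5 to 54.8 in monocytes and macrophages. Of the 15 genes of this list, 9 were lower in cDC2 than in monocytes and macrophages in all 8 mice, beside 12.7% of all genes. Among them were Itgam itself, Fn1, Plau, Plaur and Cd44. The 2 that were higher (Itga4 and Itgb7) stand beside 9.19%.

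Members differed among themselves in Cd209a. The share of cDC2 with a Cd209a UMI ranged from 36.6% to 81.2% over the mice. The 157 members with Cd209a and the 106 without had like depth, with median UMIs per mouse of 15749 to 21938 and 15373 to 20788, and those with Cd209a were the deeper in 3 of 8 mice. Of 216 genes of the lists and marker sets, Ccl2 and Ccl9, both monocyte and macrophage attracting chemokines, were higher with Cd209a in all 8 mice, and Ciita was lower in all 8. Over all 14032 genes with a UMI in cDC2, 0.299% were higher and 0.363% lower in all 8 mice, so that counts this small are read as a description of these genes only. Ccl9 had 118 CPM ± 53.0 (SD, n = 8) with Cd209a and 27.1 ± 22.1 without, and Ciita 137 ± 47.3 and 185 ± 55.6. Mgl2, a lectin linked to Cd209a+ cDC2, had 104 ± 117 CPM with Cd209a and 21.8 ± 21.3 without and was higher in 7 of 8 mice. As both sets come from the selected cells, no test was made. Over whole mice, Mgl2 ranged from 3.79 to 246 CPM.

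Markers of other cell types were summed over the cDC2 of each mouse. Endothelial markers (Cldn5, Flt1, Slco1a4 and Ly6c1, all 4 with a UMI) summed to 445, 417, 849 and 3.79 CPM in controls 1 to 4, and to 0, 9.73, 44.5 and 17.4 CPM in ancrod mice 1 to 4. Controls 1 to 3 stood above every ancrod mouse, and control 4 stood below 3 of them. Without the 14 droplets the sums were 17.2, 2.48, 10.5 and 3.90 CPM in controls and 0, 9.38, 11.5 and 17.4 in ancrod mice, so that the groups overlapped. The 14 droplets gave 12.3% of the summed cDC2 UMIs in controls and 3.05% in ancrod mice. T cell markers (2 of 4 genes are in the files) summed to 0 to 60.6 CPM in controls and 0 in ancrod mice, and NK cell markers to 0 to 92.1 CPM and 0 to 1.45, with Ncr1 at 0. Without the 14 droplets, T cell markers still reached 62.4 CPM in controls, and NK cell markers reached 3.90. Macrophage markers, all 8 with a UMI, summed to 469 to 1623 CPM in controls and 379 to 1829 in ancrod mice, and monocyte markers, all 5 with a UMI, to 1382 to 2009 and 762 to 2226. Microglia markers, all 5 with a UMI, summed to 307 to 670 CPM in controls and 442 to 576 in ancrod mice, and plasmacytoid dendritic cell markers, with Ccr9 and Ly6d at 0, to 353 to 658 and 460 to 601. Oligodendrocyte markers did not overlap between the groups, at 82.4 to 87.7 CPM in controls and 60.8 to 74.0 in ancrod mice, and at 79.5 to 89.6 and 60.8 to 74.0 without the 14 droplets. Mog was at 0, Mag had 2 UMIs and Mbp, which immune cells also transcribe, had 366. Fibroblast markers summed to 2.57 to 18.3 and 7.08 to 46.3 CPM, astrocyte markers to 15.4 to 68.2 and 17.4 to 124, and neuron markers to 0 to 5.49 and 0 to 14.3, with a UMI of all 4 genes in each list. The part of these markers in the results was not tested.

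**Figure D2:**
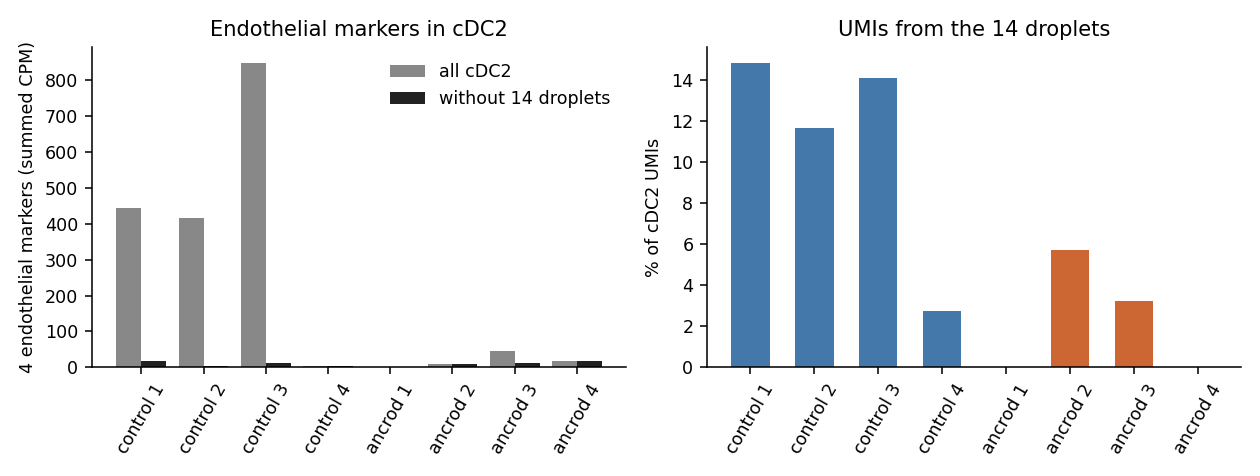
Summed CPM of 4 endothelial markers in the cDC2 of each mouse, with all cDC2 (grey bars) and without the 14 droplets scored as doublets or holding markers of another lineage (black bars), and the percent of cDC2 UMIs that came from these droplets. The sums of controls 1 to 3 drop from 445, 417 and 849 CPM to 17.2, 2.48 and 10.5.

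The abundance of cDC2 was compared between the groups by exact permutation of the mice (two-sided), which has 70 arrangements and cannot give a p below 0.0286. As a share of cells, cDC2 made up 0.557% (exact 95% interval 0.381% to 0.786%), 0.413% (0.262% to 0.620%), 0.605% (0.429% to 0.830%) and 0.234% (0.125% to 0.400%) in controls 1 to 4. In ancrod mice 1 to 4 they made up 0.693% (0.498% to 0.939%), 1.03% (0.791% to 1.32%), 0.567% (0.395% to 0.787%) and 0.394% (0.241% to 0.607%). The groups overlapped, and ancrod mouse 2 was the highest. These intervals cover counting error only. Shares are of cells recovered from the tissue. The paper describes a trend to higher proportions of reactive fibroblasts and macrophages in ancrod mice. As a likely reason it proposes easier dissociation with less fibrosis. The part of dissociation in the cDC2 shares was not tested. The means were 0.452% ± 0.167 (SD, n = 4) and 0.672% ± 0.270 (SD, n = 4), and the exact permutation p was 0.257 (Benjamini-Hochberg adjusted over 3 shares, 0.386). In batch 1 alone the means were 0.525% and 0.764%, with an exact permutation p of 0.2 over 20 arrangements, which cannot go below 0.1. In batch 2, with 1 mouse per group, the share was 0.234% in the control and 0.394% in the ancrod mouse.

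Within the dendritic cell gates, cDC2 made up 74.4%, 62.2%, 70.4% and 56.5% in controls 1 to 4 and 56.2%, 59.8%, 50.7% and 57.1% in ancrod mice 1 to 4. Control 4 lay among the ancrod mice, and the other 3 controls lay above all of them. The means were 65.9% ± 8.05 (SD, n = 4) and 56.0% ± 3.81 (SD, n = 4), with an exact permutation p of 0.0857 (adjusted 0.257). The 2 other gates held few cells, since cDC1 numbered 3, 5, 5 and 2 in controls and 10, 16, 18 and 3 in ancrod mice. In batch 1 the groups did not overlap, with means of 69.0% and 55.6% and an exact permutation p of 0.1, the lowest that 3 against 3 mice can give, while in batch 2 the control had 56.5% and the ancrod mouse 57.1%. They did not overlap either when droplets with markers of another lineage were left out, with 73.1% ± 9.28 (SD, n = 4) against 60.7% ± 4.68 (SD, n = 4) and an exact permutation p of 0.0286 (adjusted 0.0857). In controls 1 to 4 this left 2, 7, 7 and 4 mature DC of 8, 9, 11 and 8. The markers used included those of B cells, so the next result is not independent of this one. The groups also did not overlap when mature DC with B cell markers were left out, an alternative chosen after seeing the data. The shares were then 86.5%, 67.6%, 77.6% and 76.5% in controls and 62.1%, 63.5%, 55.6% and 64.5% in ancrod mice, with an exact permutation p of 0.0286 (adjusted 0.0857).

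Relative to infiltrating myeloid cells, there were 25.8, 10.5, 9.13 and 7.78 cDC2 per 100 monocytes and macrophages in controls 1 to 4, and 9.36, 25.3, 11.6 and 10.9 in ancrod mice 1 to 4. In each group 1 mouse stood at about 25 and the others near 10. The means were 13.3 ± 8.41 (SD, n = 4) and 14.3 ± 7.41 (SD, n = 4), with an exact permutation p of 0.600 (adjusted 0.600). In batch 1 alone they were 15.1 and 15.4 (exact permutation p of 0.900).

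Dividing cells were sought among cDC2 by their mitosis transcripts. After thinning to 2000 UMIs, 15 of 263 cells (5.70%) held UMIs of 2 or more mitosis genes (among Cdk1, Ccnb2, Cenpf, Top2a and Mki67). Per mouse these were 1 of 32, 4 of 23, 0 of 38 and 1 of 13 cells in controls 1 to 4, and 3 of 41, 0 of 61, 5 of 35 and 1 of 20 in ancrod mice 1 to 4. At 3 counts of the total, the counts of 0 allow shares of up to 7.89% in control 3 and 4.92% in ancrod mouse 2 of cells with such UMIs at this depth (exact 95% upper limits 9.25% and 5.87%). The means were 7.05% ± 7.58 (SD, n = 4) and 6.65% ± 5.94 (SD, n = 4), with an exact permutation p of 0.943. The share moved with depth, and the means were 9.85% and 8.38% when thinned to 3000 UMIs and 18.5% and 16.6% without thinning, with no turn of direction. Monocytes and macrophages thinned to 2000 UMIs had means of 3.45% and 5.23%. Phase was not read from these calls.

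**Figure D3:**
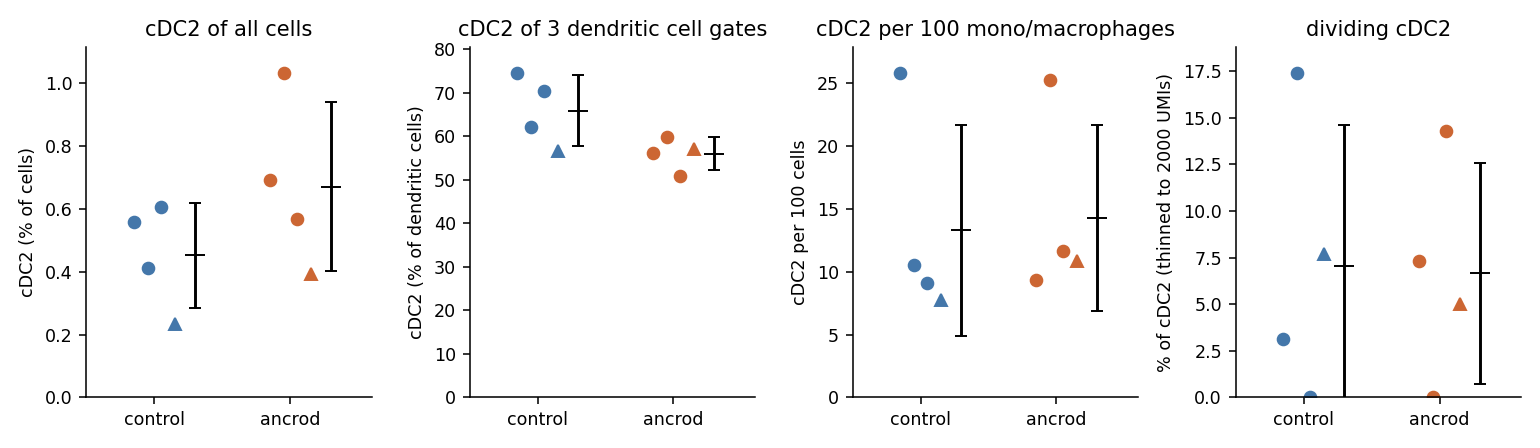
Share of cDC2 among all cells, share among the 3 dendritic cell gates, cDC2 per 100 monocytes and macrophages, and percent of dividing cDC2, with 1 point per mouse (circles batch 1, triangles batch 2) and the mean ± SD of 4 mice beside them (bars are cut at 0). The groups overlap in every panel, and in the second panel control 4 at 56.5% is the only control among the ancrod mice.

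Gene expression in cDC2 was compared on UMIs summed per mouse with edgeR's quasi-likelihood test, over 6191 genes. With Benjamini-Hochberg adjustment, 1 gene (0.0162%) passed at 0.05, and it was lower in ancrod mice. At an unadjusted p below 0.05 there were 278 genes (4.49%), 111 higher (1.79%) and 167 lower (2.7%). The groups did not overlap in 162 genes (2.62%). The values below are CPM on TMM-normalized library sizes, which TMM sets so that most genes do not change. DESeq2, an alternative tool, passed 16 genes, 2 higher and 14 lower, of which 13 are named below.

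The gene that passed was Plcb1, phospholipase C beta 1, at GRCm39 chr2:134627987-135317178. It had 65.9, 114, 92.8 and 36.9 CPM in controls 1 to 4 and 1.43, 15.5, 1.66 and 6.33 in ancrod mice 1 to 4, with no overlap. The log2 fold change was -3.41 ± 0.49 (SE) and edgeR's adjusted p was 0.0362. The level rested on few cells, as 11 control cells and 9 ancrod cells held a UMI, and 91.6% of the 166 control UMIs came from the 10 control droplets scored as doublets or holding markers of another lineage. Without the 14 droplets Plcb1 was too low to be tested and no gene passed in edgeR, with 211 genes at an unadjusted p below 0.05. Without control 2 or control 3 the adjusted p of Plcb1 was 0.0727 or 0.127.

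Of the 10 falls with the lowest p, DESeq2 passed all but Ube2s. They included further genes with much of their signal in those droplets. Slc2a1, the glucose transporter of brain vessels, had 109, 125, 184 and 61.5 CPM in controls and 43.0, 56.4, 44.8 and 38.0 in ancrod mice, and the groups did not overlap. Its log2 fold change was -1.42 ± 0.27 (SE, edgeR adjusted p 0.0947) and -0.29 without the 14 droplets. Ablim1, an actin-binding protein, and Dock9, an activator of Cdc42, had log2 fold changes of -1.91 and -2.27, with 76.7% and 75.8% of control UMIs in the droplets. Both were too low to be tested without them. Ly6a (Sca-1) and the lipid flippase Atp10a had -1.96 and -1.40, and -1.41 and -0.80 without the droplets.

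Jun, Gadd45g and Ube2s kept most of their difference without those droplets, although none passed in edgeR with or without them. Without the filter on low counts, edgeR passed all of them, with adjusted p of 2.18e-05, 0.000347 and 0.0248. With all droplets kept, DESeq2 passed Jun and Gadd45g (adjusted p 7.6e-05 and 0.0024) and not Ube2s (0.116). Jun, the AP-1 subunit, at GRCm39 chr4:94937271-94940459, had 783, 554, 717 and 799 CPM in controls 1 to 4 and 205, 236, 447 and 212 in ancrod mice 1 to 4. Every control stood above every ancrod mouse. The log2 fold change was -1.37 ± 0.23 (SE, edgeR adjusted p 0.0680), and -1.22 without the 14 droplets (adjusted p 0.324). In monocytes and macrophages it was -0.36 (edgeR adjusted p 0.760). For Jun the interaction test below gave a log2 difference of -1.02 ± 0.22 (SE, edgeR adjusted p 0.0344), which did not pass without the 14 droplets. Gadd45g, a stress-induced gene, had a log2 fold change of -2.41 and Ube2s, a partner of the anaphase-promoting complex, of -1.88, and without the droplets they had -2.03 and -1.83. Cd226 (DNAM-1), an adhesion receptor of lymphocytes and some myeloid cells, had 21.3, 30.8, 23.5 and 20.5 CPM in controls and 0, 4.55, 0 and 0 in ancrod mice, from 10 control cells and 4 ancrod cells, and was too low to be tested without the droplets.

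The 10 rises with the lowest p did not pass in edgeR with the filter and all mice either, and DESeq2 passed Rnf180 and Pik3r5 among them (adjusted p 0.0081 and 0.0366). Over the edgeR alternatives, the lowest adjusted p were 0.000217 for Rnf180, 0.00556 for Pik3r5, 0.0324 for Dennd11 and 0.0340 for Gfpt1. The highest were 0.893 or more for each of these genes, and the other rises passed under no alternative. Rnf180, a ubiquitin ligase, at GRCm39 chr13:105265278-105431337, had 52.3, 30.8, 20.9 and 41.0 CPM in controls 1 to 4 and 123, 93.7, 229 and 53.8 in ancrod mice 1 to 4. The groups were close at 52.3 and 53.8 and did not overlap. The log2 fold change was 1.86 ± 0.40 (SE, edgeR adjusted p 0.163), and 2.19 without the 14 droplets. Pik3r5, the regulatory p101 subunit of the PI3-kinase downstream of chemokine receptors, had 159, 169, 167 and 156 CPM in controls and 360, 267, 304 and 206 in ancrod mice. Its 4 controls lay close together, between 156 and 169 CPM, and below every ancrod mouse. The log2 fold change was 0.81 ± 0.17 (SE, edgeR adjusted p 0.163), and 0.70 without the droplets. In monocytes and macrophages Rnf180 and Pik3r5 had log2 fold changes of 0.06 and 0.05.

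Zfp366 and Havcr2 among the other rises are known from dendritic cells. Zfp366 (DC-SCRIPT), a transcription factor of conventional dendritic cells, had 65.9, 83.6, 71.9 and 86.0 CPM in controls and 151, 115, 98.0 and 139 in ancrod mice, with no overlap (log2 fold change 0.72). Havcr2 (TIM-3), a checkpoint receptor of dendritic cells and T cells, had 281, 202, 208 and 213 CPM in controls and 307, 312, 327 and 348 in ancrod mice, again with no overlap (log2 fold change 0.51). Their edgeR adjusted p were 0.456 and 0.615. The remaining 6 were Dennd11 (log2 fold change 1.57), the ubiquitin-conjugating enzyme Cdc34 (1.00), the TNF-induced gene Tnfaip2 (0.91), Gfpt1 of the hexosamine pathway (0.79), the aryl hydrocarbon receptor Ahr (0.66) and the SRF coactivator Mrtfa (0.52), and their edgeR adjusted p ranged from 0.179 to 0.713. Without the 14 droplets the 10 rises kept their direction, with log2 fold changes from 0.44 to 2.19.

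**Figure D4:**
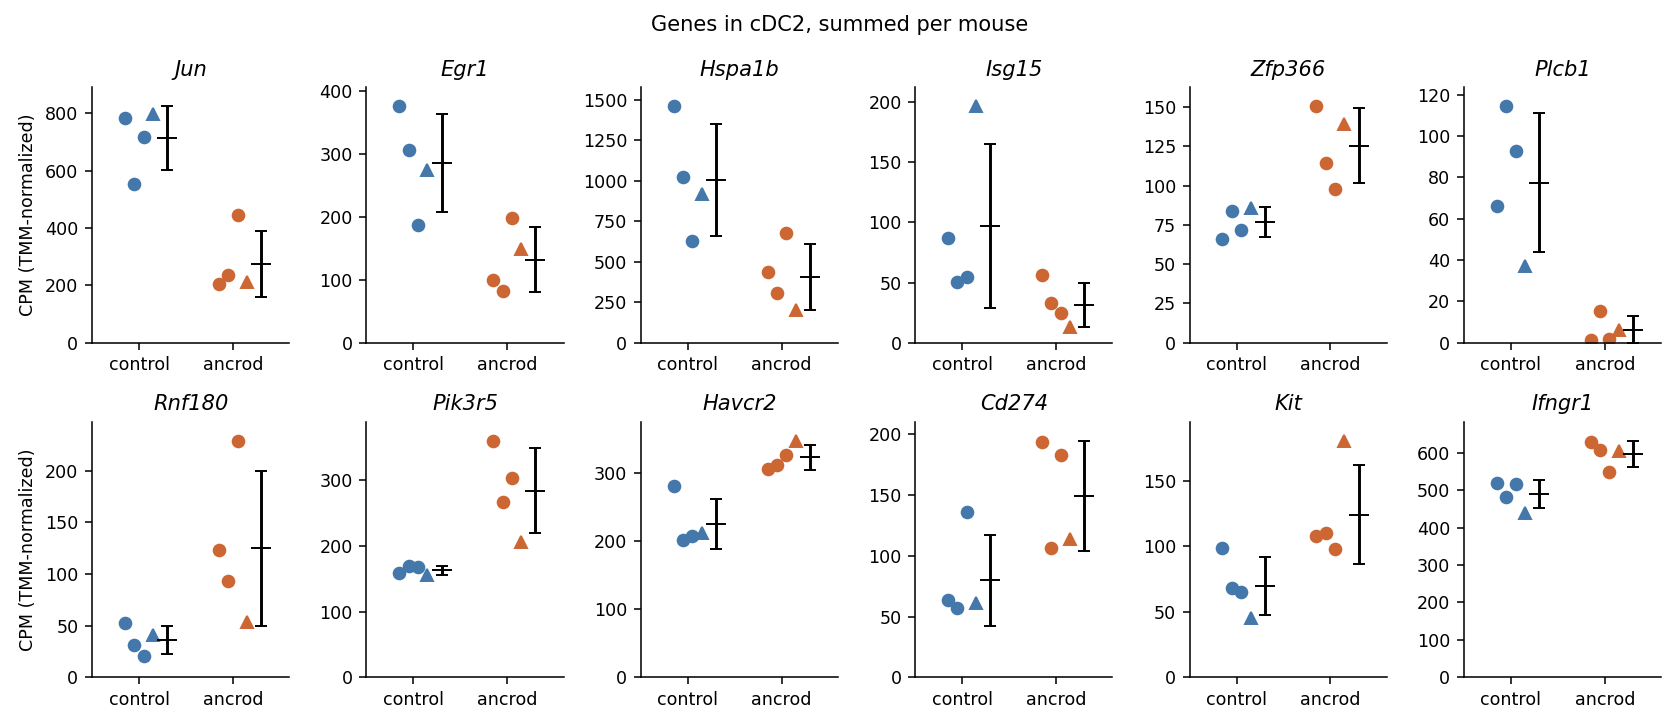
TMM-normalized CPM in summed cDC2 for 12 genes, with 1 point per mouse (circles batch 1, triangles batch 2) and the mean ± SD of 4 mice (bars are cut at 0). Jun lies at 554 to 799 CPM in controls and 205 to 447 in ancrod mice, Pik3r5 at 156 to 169 and 206 to 360, and Isg15 is highest in control 4 at 197 CPM.

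By list, the immediate early and heat shock genes had the most members at an unadjusted p below 0.05. All 10 were tested and all 10 had a log2 fold change below 0, beside 51.2% of all genes, with a median of -0.47 beside -0.01 over all genes. None passed the adjusted threshold in edgeR, while Jun, Hspa1b and Egr1 passed with DESeq2 (adjusted p 7.6e-05, 0.0270 and 0.0400). They also passed in edgeR without the filter on low counts (Hspa1b 0.00078, Egr1 0.0025) and without ancrod mouse 3. At an unadjusted p below 0.05 in edgeR there were 6 (background 4.49%). Egr1, an immediate early transcription factor, had 376, 306, 187 and 275 CPM in controls and 99.0, 82.8, 198 and 149 in ancrod mice, and 1 ancrod mouse overlapped with the controls. Hspa1b, an inducible heat shock protein, had 1460, 1021, 627 and 918 CPM and 435, 307, 678 and 199 CPM (log2 fold change -1.30 ± 0.31 SE, edgeR adjusted p 0.264). Hspa1a and Hspa1b are near-identical, so their reads may be shared. The median was -0.49 without the 14 droplets and between -0.70 and -0.32 over 22 alternatives. In monocytes and macrophages the same 10 genes had a median of -0.30. Cells were freed from the tissue with enzymes, and the paper proposes that those at the injury site came apart more easily after ancrod. The part of dissociation in these values was not tested.

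Interferon response genes were detected in part, and 5 of 10 were tested. All 5 had a log2 fold change below 0, beside 51.2% of all genes, with a median of -1.14. None passed, and 3 had an unadjusted p below 0.05 (background 4.49%). Isg15, a ubiquitin-like protein induced by interferon, had 87.2, 50.6, 54.9 and 197 CPM in controls 1 to 4 and 56.0, 32.7, 24.9 and 12.7 in ancrod mice 1 to 4 (log2 fold change -1.40 ± 0.43 SE, edgeR adjusted p 0.741). Its adjusted p was 0.0250 in edgeR without the filter on low counts and 0.189 with DESeq2. Control 4, which had the fewest cDC2, was the highest mouse, and ancrod mouse 1 lay among the controls. Without control 4 the median of the list was -0.37, in batch 1 alone it was -0.30, and with Cd209a required in the gate, which leaves control 4 out for lack of cells, it was 0.19 over 3 genes tested. Monocytes and macrophages had a median of -0.48 over the same 5 genes.

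None of the genes that define cDC2 passed the threshold. The 6 genes of the gate had log2 fold changes between 0.05 and 0.10, a range that the selection itself narrows. All 6 turned lower, with a median of -0.15, after subtraction of free RNA, which was estimated from markers of other lineages at 14.5%, 14.9%, 40.6% and 2.29% of cDC2 UMIs in controls 1 to 4 and at 0.964% to 3.98% in ancrod mice. The estimate was highest in the 3 controls in which the 14 droplets gave the largest shares of UMIs. It was made with those droplets kept and counts their markers, so it is not a measure of free RNA alone. The part of free RNA in the turn of the 6 genes was not tested. Of the identity genes outside the gate, 11 were tested, 7 higher and 4 lower, beside 48.8% of all genes higher. The median was 0.08 (6 higher and 5 lower with 0.03 without the 14 droplets). Klf4, a transcription factor of cDC2 subsets, had 277, 464, 294 and 270 CPM in controls and 324, 165, 223 and 212 in ancrod mice (log2 fold change -0.51, edgeR adjusted p 0.999). Of its control UMIs 27.1% came from those droplets, and without them the log2 fold change was -0.32. MHC class II machinery outside the gate had 6 genes higher and 3 lower of 9 tested, with a median of 0.09 (5 and 4 with 0.02 without the 14 droplets), and monocytes and macrophages a median of -0.32 over the same genes. Whether these effects differ between the classes was tested gene by gene in the interaction below, where none of the 9 genes passed. The class I list had 2 higher and 8 lower of 10 (median -0.17), but 5 lower with a median of -0.02 without control 4, a median of -0.10 without ancrod mouse 1 and one of -0.03 in batch 1 alone. In the cDC1 list 4 were higher and 2 lower of 6 (median 0.14). None of these genes passed.

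Molecules by which cDC2 speak to T cells were likewise below the threshold. In costimulation and checkpoint ligands, 11 genes were tested, 8 higher and 3 lower, beside 48.8% of all genes higher, with a median of 0.10 (7 and 4 with 0.08 without the 14 droplets). Havcr2 and Cd274 were at an unadjusted p below 0.05, 2 of 11 beside 4.49% of all genes. Cd274 (PD-L1) had 64.0, 57.2, 136 and 61.5 CPM in controls and 194, 106, 183 and 114 in ancrod mice (log2 fold change 0.84 ± 0.29 SE, edgeR adjusted p 0.850), and control 3 lay among the ancrod mice. In maturation and migration 6 of 12 genes were tested, 5 higher and 1 lower (median 0.05), and 2 higher and 4 lower without the 14 droplets (median -0.01). In cytokines 4 of 10 were tested, and the median was 0.07. Tnf had 140, 33.0, 79.7 and 139 CPM in controls and 34.4, 30.9, 83.0 and 72.8 in ancrod mice (log2 fold change -0.86). In chemokines 8 were tested, 3 higher and 5 lower (median -0.11), and 4 and 4 without the droplets (median near 0).

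Among receptors, 15 of 17 chemokine and growth factor receptors were tested, 8 higher and 7 lower, with a median of 0.03, and 10 and 5 without the droplets (median 0.08). Kit had 98.9, 68.2, 65.3 and 45.1 CPM in controls and 108, 110, 98.0 and 180 in ancrod mice (log2 fold change 0.76 ± 0.25 SE, edgeR adjusted p 0.80), and the lowest ancrod mouse was just under the highest control. Ifngr1, a chain of the interferon gamma receptor, had 519, 482, 516 and 438 CPM and 629, 609, 548 and 604 CPM, with no overlap (log2 fold change 0.28 ± 0.13 SE, edgeR adjusted p 0.999). In fibrinogen and matrix receptors 11 of 15 were tested, 5 higher and 6 lower (median -0.01). Itgam had 132, 136, 183 and 123 CPM in controls and 142, 127, 136 and 94.9 in ancrod mice, and Itgb2 had a log2 fold change of -0.01 ± 0.16 (SE). In pattern recognition 6 of 12 were tested, 4 higher and 2 lower (median 0.25, and 0.15 without the droplets). In the cell cycle list 8 of 10 were tested, 1 higher and 7 lower (median -0.39), with no gene at an unadjusted p below 0.05. That median was -0.05 without control 2, -0.09 without ancrod mouse 2, -0.71 without control 3, -0.84 without ancrod mouse 3 and 0.05 with Cd209a required in the gate, and it was 0.46 in monocytes and macrophages. Apart from Plcb1, which is in no list, no gene named for this comparison passed in edgeR's main run, with all mice, all droplets and the filter on low counts. With edgeR's newer dispersion method, an alternative, Cd226 passed beside Plcb1. Of the genes of the lists, Jun, Egr1, Hspa1b and Isg15 passed in edgeR without that filter, and Ccl3 passed without ancrod mouse 3 (adjusted p 0.0495).

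**Figure D5:**
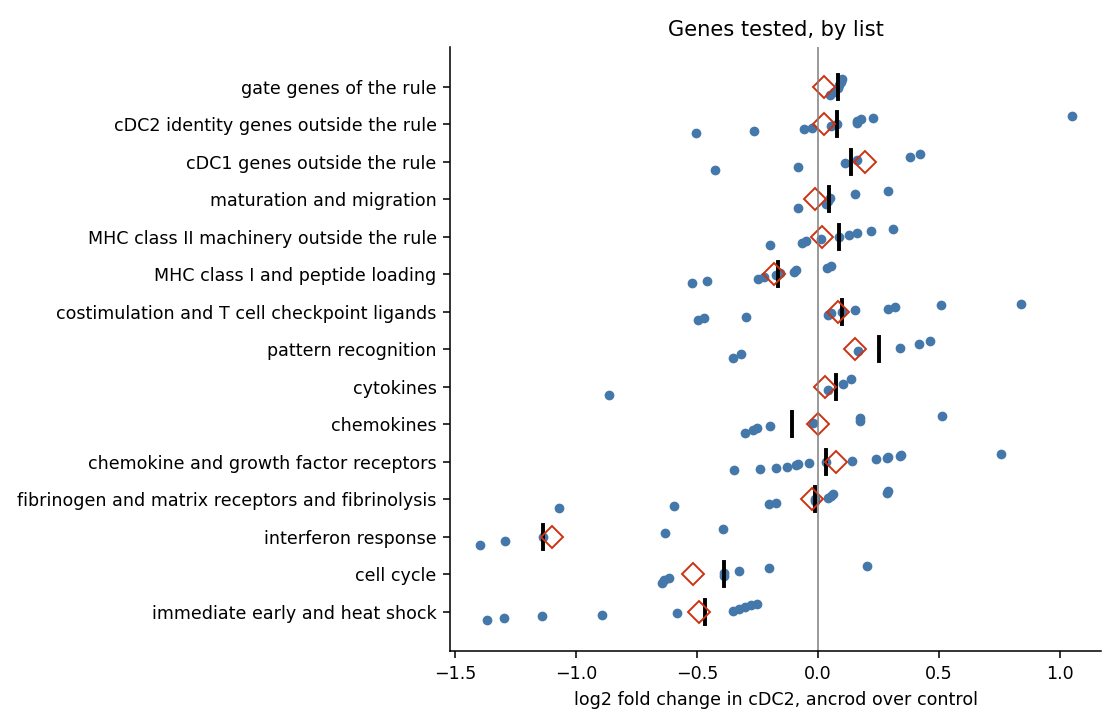
Log2 fold changes of ancrod over control in summed cDC2 for the genes tested, by list (points), with the median of each list (black bar) and the median without the 14 droplets (red diamond). The medians of the interferon response and of the immediate early and heat shock genes lie at -1.14 and -0.47, and those of the other lists between -0.39 and 0.25.

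Whether ancrod acted differently on cDC2 and on monocytes and macrophages was tested as an interaction with the mouse as a block, in edgeR. Of 10068 genes, 104 (1.03%) passed, 2 with a higher and 102 with a lower effect in cDC2. For the 104 genes a median of 95.7% of the control cDC2 UMIs came from the 10 control droplets scored as doublets or holding markers of another lineage, and 17 of the 104 were high enough to be tested in cDC2 alone. Without the 8 doublets, without the 12 droplets with other markers or without all 14, no gene passed in edgeR, with 439, 440 and 452 genes at an unadjusted p below 0.05. The 2 genes with a higher effect in cDC2, named after their values were seen, were Prdm1, the transcription factor Blimp-1 (log2 difference 1.96 ± 0.43 SE, adjusted p 0.0396), and Plcl1, a phospholipase C-like protein (0.84 ± 0.18 SE, adjusted p 0.0396). Genes of the lists among the 102 were Jun (log2 difference -1.02 ± 0.22 SE, edgeR adjusted p 0.0344), Tnfsf9 (-1.83 ± 0.41 SE, edgeR adjusted p 0.0431), Esam and Cd200. The endothelial markers Cldn5, Flt1, Slco1a4 and Ly6c1 were among the 102 as well. In monocytes and macrophages alone no gene of 11247 passed (0%), with 676 at an unadjusted p below 0.05.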

How the data were processed

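UMI counts were those deposited. Per the labels and the submitters' processing notes, the authors made libraries with 10x Genomics 3′ chemistry and aligned them with Cell Ranger 7.1.0, which uses STAR, to GRCm39. The deposited counts are whole UMIs per gene and droplet, unfiltered, for 21848 genes. A 3′ count stands for transcripts and not for transcript length. The study's own cell annotation was not used here.

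Cells needed 2000 UMIs or more, under 20% of them from 13 mitochondrial genes, and were gated as described. The members, gates and gene lists were chosen with earlier results of these data known. The monocyte and macrophage gate required at least 1.5 cp10k of Ccr2 and Ms4a7 and at least 10 of Lyz2, with no Cd209a or Flt3 and with upper limits on markers of microglia, border-associated macrophages, neutrophils and other dendritic cells. Doublets were kept in the main results and scored by simulated doublets on 30 principal components of 2000 genes, taking 0.8% per 1000 cells. Shares had 1 value per mouse and an exact permutation test (two-sided, 70 arrangements). UMIs were summed per mouse for mice with at least 10 cDC2, which all 8 had, cut to the genes that filterByExpr keeps, scaled by TMM, and entered into edgeR 4.0.16 (glmQLFit, glmQLFTest), with DESeq2 1.42.0 as an alternative, in R 4.3.3. On simulated data with the depth of cDC2, edgeR recovered 56% of 200 changed genes at a log2 fold change of 1 (5985 genes tested) and 88% at 2 (5981 genes). It also passed 6 and 7 unchanged genes. The simulated counts had edgeR's spread by expression level, with no spread particular to a gene and no doublets, so recovery in the real counts can differ. Genes named were all those of the lists, genes that passed with no overlap of the groups, the 10 lowest p in each direction, and the 20 largest ratios to monocytes and macrophages and to cDC1 (at least 50 CPM). Summed libraries of cDC2 held few cells, so counting error limits genes at low CPM.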

Additional observations from a re-analysis of the deposited data

Results flagged for a closer look

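In groups of 4 mice, a mouse was singled out when its gap to the next one, relative to the group's range, exceeded Dixon's 95% critical value. This was looked for in 50 groups of values, and 6 were found, where chance gives about 1 in 20. Of these, 2 concern cDC2 per 100 monocytes and macrophages, where control 1 stood at 25.8 and ancrod mouse 2 at 25.3. Among genes, control 1 stood out for Havcr2 at 281 CPM, ancrod mouse 2 for Cd226 at 4.55 CPM (the other ancrod mice had 0), and ancrod mouse 3 for both Jun at 447 CPM and Ablim1 at 33.2 CPM.

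The effect of ancrod differed between cDC2 and monocytes and macrophages for 104 genes by the interaction test, and for none without the droplets scored as doublets or without those holding markers of another lineage. Of the 104 genes, 95 had over 50% of their control cDC2 UMIs in these 10 control droplets, and 7 had no UMI in the cDC2 of ancrod mice. The difference for the remaining genes was not examined further.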

How the results depend on the processing

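The 3 shares of cDC2 passed the adjusted threshold under none of their alternatives, with exact permutation p between 0.114 and 0.657 for the share of cells, 0.0286 and 0.200 for the share of dendritic cells, and 0.286 and 1.00 for the ratio to monocytes and macrophages. Leaving out each mouse in turn gave differences, ancrod minus control, of 0.0988 to 0.312 percentage points, -13.0 to -7.06 percentage points and -2.69 to 5.15 cells per 100. The last turned negative without control 3 (-0.405), control 4 (-0.855) or ancrod mouse 2 (-2.69), and with Cd209a required in the gate (-1.38). The difference in dividing cells (-0.401 percentage points) ranged from -2.95 to 3.04, and was positive without control 2 (3.04), ancrod mouse 2 (1.82) or ancrod mouse 4 (0.149). The cause of these turns was not tested.

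The count of genes changed in cDC2, 1 as reported, was 16 with DESeq2, 154 without the filter, 46 in batch 1 alone, 2 with Cd209a required (7 mice), 2 with edgeR's newer dispersion method, and 0 without doublets, without droplets holding other markers, or without both. Subtraction of free RNA also gave 1 gene, Cd63, which was higher, and not Plcb1. The 2 genes with Cd209a required were Jun and Hspb1, those with the newer method Plcb1 and Cd226, and the 1 without control 2 was Gadd45g, all named after their values were seen. Leaving out each mouse gave 0 to 45: 2, 1, 0 and 45 without controls 1 to 4, and 7, 2, 24 and 16 without ancrod mice 1 to 4. The interaction count of 104 was 214 without the filter, 0 under each of the 3 removals of droplets, and 31 to 104 when a mouse was left out, with 51 without control 3, 59 without ancrod mouse 1 and 31 without ancrod mouse 2. The median log2 ratio of the 20 genes leading over monocytes and macrophages, 6.00, was 6.43 after subtraction of free RNA and moved by less than the spread over mice otherwise. Of 419 values of the 20 genes named by their p, none turned direction, 48 passed where they had not and 2 no longer passed.

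Replicate numbers did not pair the mice, as same-numbered mice correlated between -0.0273 and 0.0857 in their deviations from the group means. With the replicate number as a block 1 gene passed, the same Plcb1. Control 4 rests on 13 cDC2. The removals of both kinds of droplets, edgeR's newer method, the B cell limit, the removal of droplets with other markers from the interaction, and the alternatives of the levels were chosen after seeing the data.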
